A study of Rattus norvegicus with 12 samples.

Results

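The liver transcriptome of rats that received N-nitrosodiethylamine (NDEA) together with CFT-1 green tea (the NDEA+CFT-1 group) was compared with that of rats that received neither (the Control group). The genes compared were those with a mean FPKM (fragments mapped to a gene, divided by its length and by the library's total) of at least 1 over the 6 libraries of these groups. There were 11263 such gene identifiers (IDs) of 34194 in all, or 32.9%, of which 10630 were Ensembl rat genes and 633 were loci without an annotation. The question was which genes differed between treated rats and untreated rats at the end of the experiment.

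All animals were male Wistar rats, at the start of 140 to 160 g, 12 per group and 48 in all, and liver was taken at week 20. Control rats had water to drink and intraperitoneal injections of 0.9% saline, 2 per week between weeks 2 and 9. NDEA+CFT-1 rats were given 25 mg/kg NDEA on the same schedule and drank an infusion of CFT-1, a tea variety rich in epigallocatechin gallate (EGCG), for 20 weeks. The study also held an NDEA group, which had these NDEA injections and water, and an NDEA+FYT group, which had the same injections and an infusion of the common tea variety Fuyun6. For the NDEA and NDEA+FYT groups, the paper reports liver lesions on fewer rats than were assigned at the start. Each group was represented by 3 libraries from livers of different rats, and the labels do not say whether the sampled tissue held nodules. Because Control rats had neither NDEA nor tea, the effects of the carcinogen and of the infusion cannot be told apart in this comparison.

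NDEA is a carcinogen that cytochrome P450 enzymes of the hepatocyte convert into a species that alkylates DNA, and repeated injections lead to hepatocellular tumours in rats. EGCG is the main catechin of green tea and is known as an antioxidant. Bulk liver RNA holds mostly hepatocyte transcripts together with those of stellate, endothelial, bile duct and immune cells. A higher level of a transcript in such RNA does not tell whether more cells of a type were present or whether each cell held more of it. The IDs were not paired with gene symbols in the sources used here, so the functions of single genes, the liver markers and the pathway lists are not described, and genes appear by ID.

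The libraries held 18835891 to 24715619 counted reads in Control and 20419430 to 25718747 in NDEA+CFT-1. IDs with a mean of 1 to 2 FPKM, of which there were 1856, had a median of 69 reads per library. The 100 most abundant IDs took 48.8% to 54.6% of the summed FPKM in Control and 47.5% to 50.6% in NDEA+CFT-1. The median FPKM of the tested IDs was 7.26, 7.26 and 5.85 in Control replicates 1 to 3 and 7.55, 5.95 and 7.19 in those of NDEA+CFT-1, so that 1 library of each group lay below the other libraries. Values were therefore compared both as deposited and after median-of-ratios scaling, which divides each library by a factor that brings the typical gene to the same level. These factors ran from 0.8653 in Control replicate 3 to 1.091 in NDEA+CFT-1 replicate 1.

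The mean Euclidean distance between livers on log2(FPKM + 1) was 59.11 between groups and 59.26 within groups as deposited, and 57.13 between and 56.66 within after scaling. An unpaired exact permutation test of the 20 ways to assign the 6 libraries gave a one-sided p of 0.7 as deposited and 0.4 after scaling, where 0.1 is the smallest p the design allows. Libraries of the same replicate number lay closer across groups, at a mean of 55.35 over 3 pairs against 60.99 over the 6 pairs of other numbers as deposited, and 52.71 against 59.34 after scaling. The pairs of other numbers thus had a mean above that within groups, which holds no pairs of the same number, and this difference was not tested. In a principal component analysis of the scaled values, the first component held 40.07% of the variance and placed NDEA+CFT-1 replicate 2 at 46.2, with the other 5 libraries between -26.3 and 11.6. The second component held 23.26% and placed Control replicates 1 and 2 at 26.0 and 23.0, while Control replicate 3 lay at -17.8 beside the NDEA+CFT-1 libraries at -2.75, -16.4 and -12.0. Hence no component of these 2 separated the groups. NDEA+CFT-1 replicate 2 was the library farthest from its group median in 58.6% of IDs, and Control replicate 3 in 46.5%.

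**Figure D1:**
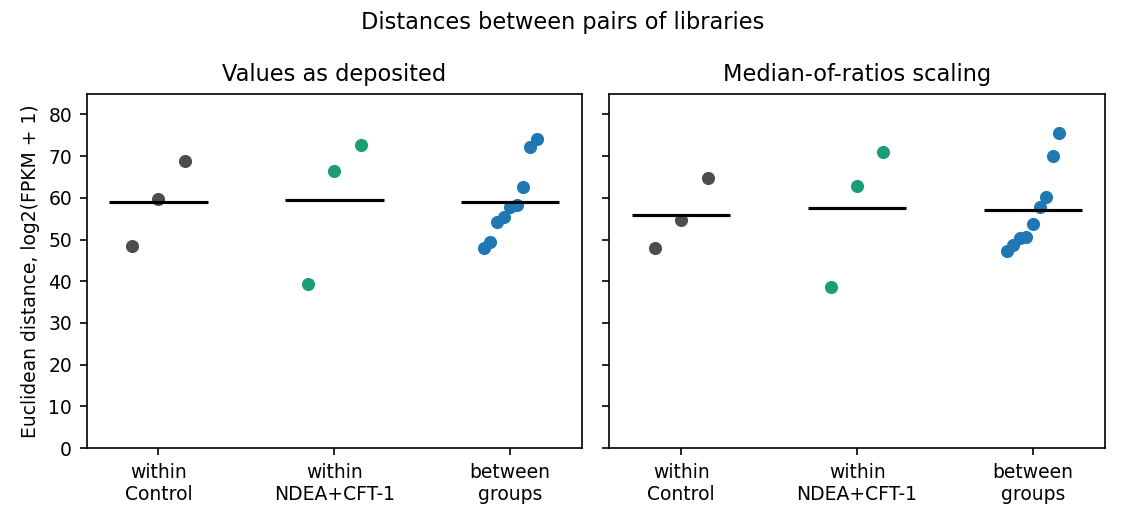
Euclidean distance between each pair of libraries over the 11263 tested IDs on log2(FPKM + 1), as deposited (left) and after median-of-ratios scaling (right). Each point is 1 pair and the line is the mean of its column. The distances between groups overlap those within groups, with means of 59.11 and 59.26 as deposited.

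No ID passed the test for a difference between NDEA+CFT-1 and Control when the 6 libraries had equal weight. At a Benjamini-Hochberg adjusted p under 0.05, limma called 0 of 11263 IDs (0%) as deposited, where the smallest adjusted p was 0.962, and 0 (0%) after scaling, where the smallest was 0.158. limma-voom on the read counts recovered from the FPKM values also called 0, with library totals and with scaled library sizes. At an unadjusted p under 0.05, limma gave 423 IDs (3.76%) as deposited and 473 (4.2%) after scaling, where 5% would pass on average if no gene differed. limma-voom gave 390 (3.46%) and 467 (4.15%). With the replicate number as a block in the fit, the unadjusted count was 682 (6.06%) as deposited and 763 (6.77%) after scaling, both above 5%, and still 0 IDs were called. With limma's library weights, 517 IDs were called as deposited and 2964 after scaling, and these calls rest largely on replicate 1 of each group.

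Single libraries moved these counts. Without Control replicate 2, limma called 6 IDs as deposited and 5 after scaling, and without any 1 of the other 5 libraries it called 0 on both scales. The unadjusted count as deposited was 252 without Control replicate 1, 771 without Control replicate 3 and 732 without NDEA+CFT-1 replicate 2. Its balance turned with the library left out. Without Control replicate 3 there were 194 IDs higher and 577 lower in NDEA+CFT-1, and without NDEA+CFT-1 replicate 2 there were 605 higher and 127 lower. After scaling, 282 were higher and 526 lower without Control replicate 3. Without NDEA+CFT-1 replicate 2, 321 were higher and 320 lower after scaling, so that the imbalance seen there as deposited was absent.

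The direction of the differences depended on the scaling. As deposited, 267 of the 423 IDs at an unadjusted p under 0.05 were higher in NDEA+CFT-1 (2.37% of those tested) and 156 lower (1.39%). After scaling, 224 were higher (1.99%) and 249 lower (2.21%). The count of IDs whose 3 NDEA+CFT-1 libraries all lay above or all below the 3 Control libraries behaved alike. As deposited there were 962 such IDs (8.54%), 700 above (6.22%) and 262 below (2.33%). After scaling there were 1049 (9.31%), 546 above (4.85%) and 503 below (4.47%). By the 20 ways to assign 6 unpaired libraries, a share of 0.1 would be without overlap on average if no gene differed. Both counts lay below that share. The median log2 difference over all tested IDs was 0.03 as deposited and -0.00 after scaling. The excess of IDs higher in NDEA+CFT-1 was thus smaller after scaling by the count without overlap, and turned by the unadjusted count.

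**Figure D2:**
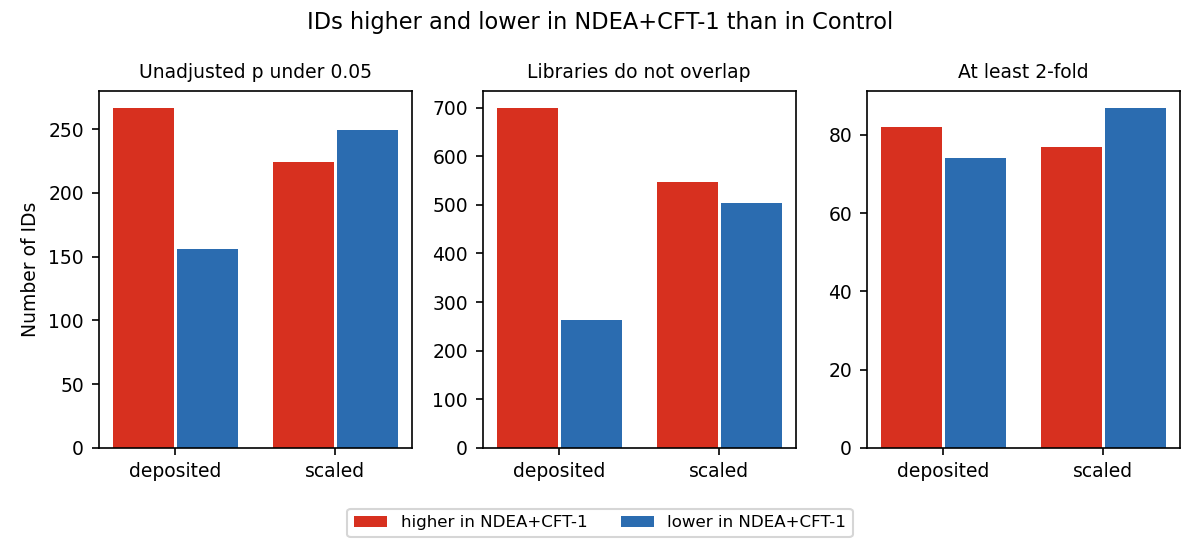
Number of IDs higher (red) and lower (blue) in NDEA+CFT-1 than in Control under 3 rules, with values as deposited and after median-of-ratios scaling. The vertical axes start at 0 and differ between panels. IDs without overlap number 700 higher and 262 lower as deposited, against 546 and 503 after scaling.

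Most IDs had group means close together on log2(FPKM + 1), a scale that understates differences of weakly expressed IDs. The median absolute log2 difference after scaling was 0.15, and 94.5% of IDs differed by less than 1.5-fold between the group means of log2(FPKM + 1). The 95% confidence interval of the difference lay wholly within 2-fold in either direction for 9183 IDs (81.5%). Its median half-width was 0.49 on the log2 scale, before any adjustment for the number of genes tested. The adjusted test asked for more, since no difference over the 6 equally weighted libraries passed it. At least 2-fold differences were found for 164 IDs (1.46%) after scaling, 77 higher in NDEA+CFT-1 (0.684%) and 87 lower (0.772%). As deposited there were 156 (1.39%), 82 higher (0.728%) and 74 lower (0.657%). Of the 164 IDs after scaling, 80 were without overlap, 37 higher and 43 lower. Leaving out 1 library at a time, the 2-fold count ran from 146 without Control replicate 1 to 246 without Control replicate 2 as deposited, and from 152 to 242 without the same libraries after scaling. Without Control replicate 1, 113 of the 164 stayed at 2-fold in the same direction, and without NDEA+CFT-1 replicate 1, 146 did, the lowest and the highest number over the 6 libraries.

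Differences of 2-fold were found for strongly and for weakly expressed IDs, at shares of 1.33% to 2.25% beside 1.46% of all tested IDs. Of the 756 IDs at 100 to 1000 FPKM, 17 did (2.25%), 8 higher and 9 lower in NDEA+CFT-1. The share was 1.36% of the 2057 IDs at 20 to 100 FPKM, 1.33% of the 3751 at 5 to 20 FPKM and 1.5% of the 4613 at 1 to 5 FPKM. These 2-fold differences are on log2(FPKM + 1), which understates those of weakly expressed IDs. The limit was therefore harder to reach in the low bands, and the shares cannot be compared between bands. Of the 86 IDs at 1000 FPKM or more, 0 differed by 2-fold, a number too small to set apart from the 1.46% of all tested IDs. The median log2 difference after scaling was -0.04 at 1 to 5 FPKM, -0.00 at 5 to 20, 0.04 at 20 to 100, 0.06 at 100 to 1000 and -0.03 at 1000 or more.

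**Figure D3:**
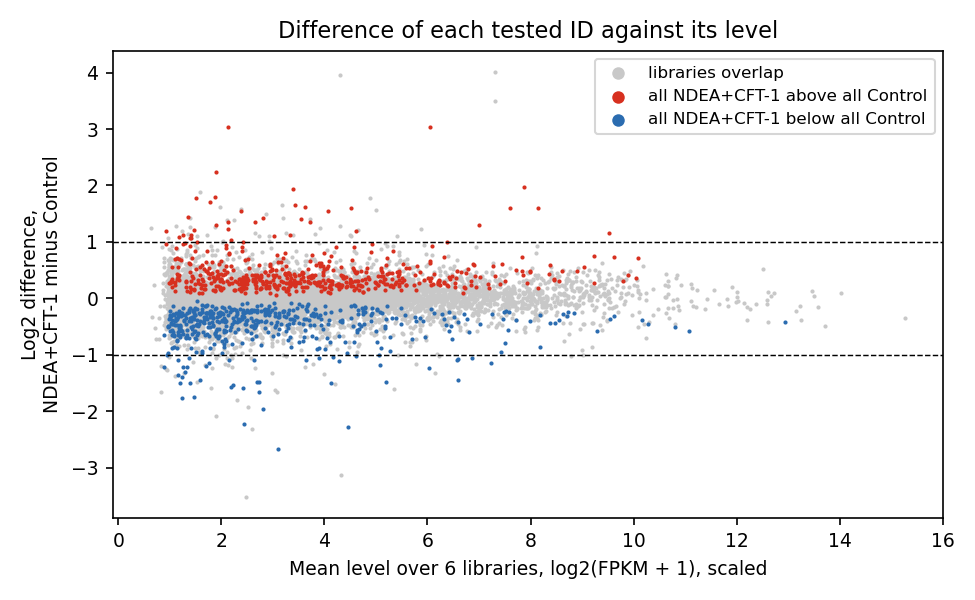
Log2 difference between the NDEA+CFT-1 and Control means of each tested ID after scaling, against its mean log2(FPKM + 1) over the 6 libraries. Red and blue points are IDs whose libraries do not overlap, grey points those that overlap, and dashed lines mark 2-fold. IDs without overlap are 9.31% of those tested, where a share of 0.1 would be on average if no gene differed. Of the 164 IDs beyond the dashed lines, 80 are without overlap.

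The most abundant ID, ENSRNOG00000002911, was singled out after its values were seen. It had 41878, 42895 and 47376 FPKM in Control and 30174, 37175 and 40387 FPKM in NDEA+CFT-1. As deposited every treated liver lay below every Control liver, with means of 44049 ± 2925 and 35912 ± 5222 (SD, n = 3 each). This ID took 8.66%, 8.87% and 9.80% of the reads in Control and 6.24%, 7.69% and 8.36% in NDEA+CFT-1. After scaling the libraries overlapped. The scaled log2 difference was -0.34 (SE 0.28), at an unadjusted p of 0.266 in limma.

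The 2 IDs with the smallest p in each direction, among those without overlap on either scale, showed group levels several-fold apart. ENSRNOG00000037060 had the smallest p of all tested IDs. It was at 7.52, 7.71 and 5.58 FPKM in Control (165, 140 and 133 reads) and at 2.14, 1.67 and 1.57 FPKM in NDEA+CFT-1 (53, 34 and 31 reads). The means were 6.94 ± 1.18 and 1.79 ± 0.302 FPKM (SD, n = 3 each), a 3.87-fold lower level in treated livers. Its scaled log2 difference was -1.53 (SE 0.15), with an adjusted p of 0.158 in limma.

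ENSRNOG00000032394 was a more abundant transcript with the same direction. Its level was 182, 200 and 105 FPKM in Control and 65.4, 48.9 and 62.5 FPKM in NDEA+CFT-1. The means were 163 ± 50.8 and 58.9 ± 8.80 FPKM (SD, n = 3 each), or 2.76-fold lower in treated livers. These values rest on 2434 to 9762 reads per library. The scaled log2 difference was -1.44 (SE 0.21) with an adjusted p of 0.518 in limma.

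In the other direction, ENSRNOG00000032720 was at 8.35, 5.29 and 4.60 FPKM in Control and at 27.9, 15.6 and 20.7 FPKM in NDEA+CFT-1. The lowest treated liver thus lay above the highest Control liver. The means were 6.08 ± 1.99 and 21.4 ± 6.16 FPKM (SD, n = 3 each), a 3.52-fold difference, and the scaled log2 difference was 1.63 (SE 0.22) with an adjusted p of 0.518 in limma. ENSRNOG00000038738 was a weakly expressed ID at 0.949, 1.64 and 0.375 FPKM in Control and 6.12, 3.93 and 6.20 FPKM in NDEA+CFT-1. It rests on 7, 10 and 3 reads in Control and 51, 27 and 41 in NDEA+CFT-1. The means were 0.987 ± 0.633 and 5.42 ± 1.28 FPKM (SD, n = 3 each), and the scaled log2 difference was 1.71 (SE 0.25) with an adjusted p of 0.518 in limma. None of these 4 IDs was among the 5 called without Control replicate 2 on the scaled values.

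Livers that received NDEA without CFT-1 tea showed where these levels lay with the carcinogen alone or with the other tea. ENSRNOG00000032720 was at 37.3, 8.37 and 19.7 FPKM in NDEA and at 12.3, 13.8 and 13.3 FPKM in NDEA+FYT, and ENSRNOG00000038738 was at 8.76, 3.59 and 2.48 FPKM in NDEA and 3.39, 8.19 and 3.49 FPKM in NDEA+FYT. Every one of these livers was above the highest Control liver as deposited, but both IDs were chosen for low levels in the same 3 Control livers. For ENSRNOG00000032720, NDEA replicate 2 at 8.37 FPKM was at nearly the same level as Control replicate 1 at 8.35 FPKM. The levels of NDEA+CFT-1 overlapped those of NDEA for both IDs, and those of NDEA+FYT for ENSRNOG00000038738. For ENSRNOG00000032720, every NDEA+CFT-1 liver lay above every NDEA+FYT liver, after a choice of IDs that were high in NDEA+CFT-1. Its scaled log2 difference from NDEA+FYT was 0.79 (SE 0.34), with an adjusted p of 0.824 in a limma fit of all 12 libraries.

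ENSRNOG00000037060 was at 2.48, 5.77 and 4.07 FPKM in NDEA and 6.41, 3.40 and 2.93 FPKM in NDEA+FYT. ENSRNOG00000032394 was at 83.6, 168 and 179 FPKM in NDEA and 212, 127 and 101 FPKM in NDEA+FYT. For both IDs the 3 NDEA+CFT-1 livers were below all 9 livers of the other groups, after a choice of IDs that were low in these 3 livers. The scaled log2 difference of ENSRNOG00000032394 was -1.03 (SE 0.37) from NDEA, with an adjusted p of 0.299, and -1.08 (SE 0.37) from NDEA+FYT, with an adjusted p of 0.824, in a limma fit of all 12 libraries. That of ENSRNOG00000037060 was -0.71 (SE 0.30) and -0.74 (SE 0.30), with adjusted p-values of 0.324 and 0.824. Hence 0 of the 4 IDs were called against NDEA and 0 against NDEA+FYT.

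**Figure D4:**
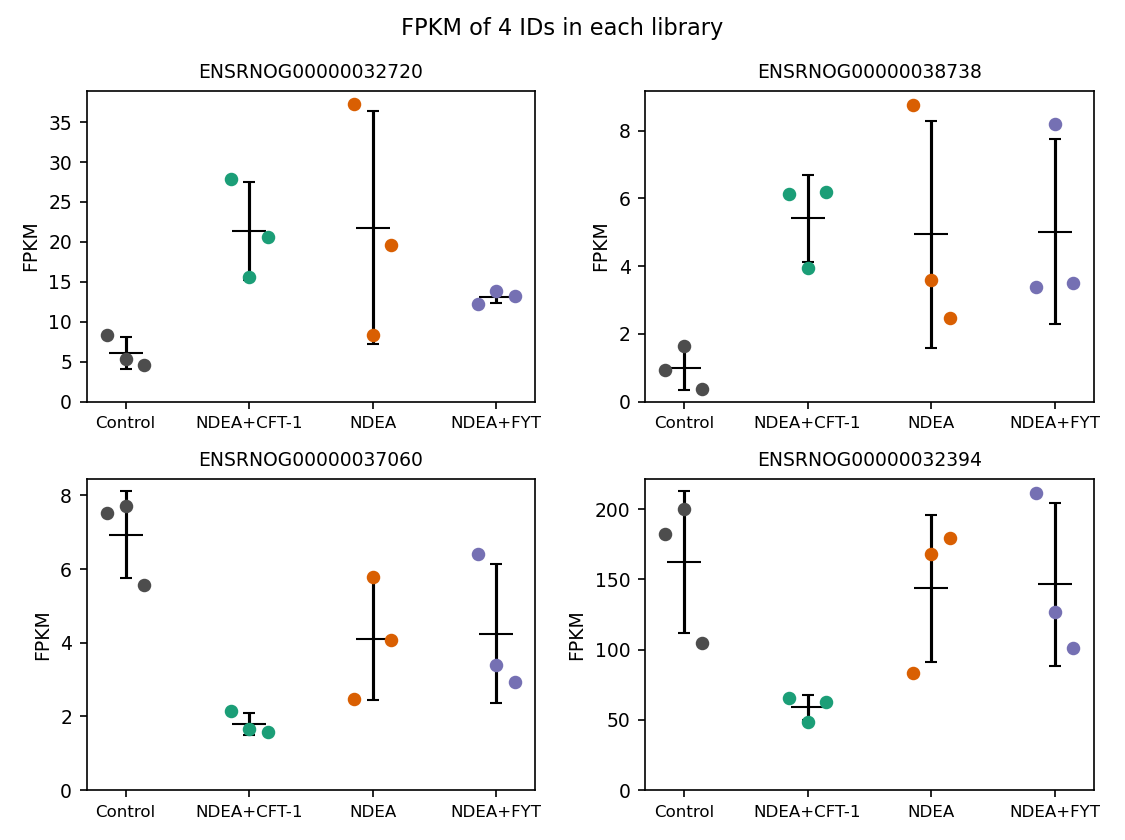
FPKM of 4 IDs in each of the 12 libraries, by group, with values as deposited. Points are libraries, the horizontal mark is the mean and the bar is 1 SD (n = 3). In the upper panels the Control livers are the lowest of the 12, and in the lower panels the NDEA+CFT-1 livers are the lowest. For ENSRNOG00000032720, NDEA replicate 2 (8.37 FPKM) and Control replicate 1 (8.35 FPKM) are nearly level.

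The largest differences between the group means were mostly set by livers within a group that stood far apart. After scaling, 7 IDs differed by 8-fold or more, 5 with a higher and 2 with a lower mean in NDEA+CFT-1, and only 2 of them were without overlap. They were picked out after their values were seen, and are described by these values alone. One had 0.468, 59.4 and 0.431 FPKM in Control and 58.8, 59.2 and 136 FPKM in NDEA+CFT-1. Another had 1.54, 1340 and 16.3 FPKM in Control and 1370, 1350 and 145 FPKM in NDEA+CFT-1. The first was at 740, 1.98 and 48.5 FPKM in NDEA and 50.7, 159 and 74.4 FPKM in NDEA+FYT. The second was at 9.06, 0 and 54 FPKM in NDEA and 160, 88.1 and 113 FPKM in NDEA+FYT. For both, Control replicate 2 stood with the NDEA+CFT-1 livers, and the other Control livers were far below it.

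One of the pair without overlap showed the same arrangement, with 6.75, 135 and 10.4 FPKM in Control and 142, 222 and 220 FPKM in NDEA+CFT-1. The NDEA livers were at 293, 81.7 and 171 FPKM and the NDEA+FYT livers at 106, 249 and 124 FPKM for this ID. In Control replicates 1 and 3 it was therefore below all other 10 livers. The other ID of the pair had 0.031, 2.21 and 0.114 FPKM in Control and 10.6, 27 and 5.33 FPKM in NDEA+CFT-1. It was at 25, 0.0342 and 1.58 FPKM in NDEA, so that NDEA livers also lay within the Control range, and at 4.47, 9.1 and 4.28 FPKM in NDEA+FYT. Among the 2 IDs lower by 8-fold or more, an unannotated locus had 34.1, 0.261 and 141 FPKM in Control and 0.478, 0.928 and 0.602 FPKM in NDEA+CFT-1. It was also high in 1 NDEA liver at 55.9 FPKM and in 1 NDEA+FYT liver at 52.9 FPKM, with the remaining livers of those groups under 1 FPKM.

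The 5 IDs called without Control replicate 2 on the scaled values were all Ensembl genes that were higher in that library than in the other Control livers, and 2 of them were among the 7 IDs of 8-fold or more. One of the other 3 was at 2.56, 12.5 and 2.10 FPKM in Control and 17.8, 19.4 and 22.2 FPKM in NDEA+CFT-1. Another was at 5.91, 89.0 and 5.30 FPKM in Control and 50.4, 41.8 and 74.7 FPKM in NDEA+CFT-1, so that here Control replicate 2 exceeded every treated liver. The scaled log2 differences of the 5 IDs without that library were 2.18 to 5.71, with an adjusted p of 0.0369 for each in limma. With all 6 libraries they were 1.54 to 3.96 and were not called.

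Unannotated loci were more often lower than higher in NDEA+CFT-1. Of the 633 tested, 57 (9%) had an unadjusted p under 0.05 after scaling, 6 higher and 51 lower, where 4.2% of all IDs did. The libraries did not overlap for 75 of them (11.8%), 15 above and 60 below, where 9.31% of all IDs were without overlap, 4.85% above and 4.47% below. The share expected on average if no gene differed was 0.1. The median log2 difference of the unannotated loci was -0.12 after scaling and -0.10 as deposited, beside 0.00 and 0.03 for Ensembl IDs. These loci were weakly expressed, with a median of 2.35 FPKM against 7.48 for Ensembl IDs. In the band of 1 to 5 FPKM, 49 of 479 unannotated loci (10.2%) were below Control without overlap, against 211 of 4134 Ensembl IDs (5.1%).

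By library and without regard to replicate number, the unannotated loci did not separate the groups. Their median log2 difference from the Control mean was 0.06, 0.07 and -0.11 in the Control livers and -0.11, -0.05 and -0.20 in the NDEA+CFT-1 livers, so that Control replicate 3 lay among the treated livers. Within each replicate number, however, the NDEA+CFT-1 liver lay below the Control liver, and this paired difference was not tested. The medians were -0.13, -0.06 and -0.01 in NDEA and -0.08, 0.02 and -0.09 in NDEA+FYT. Leaving out 1 of the 6 libraries at a time, the median between NDEA+CFT-1 and Control stayed between -0.16 and -0.10. Without Control replicate 1, 26 unannotated loci were lower and 6 higher at an unadjusted p under 0.05 in limma. Over all tested IDs the counts were then 144 lower and 98 higher. Without Control replicate 3, 84 unannotated loci were lower and 8 higher, beside 526 lower and 282 higher over all tested IDs.

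**Figure D5:**
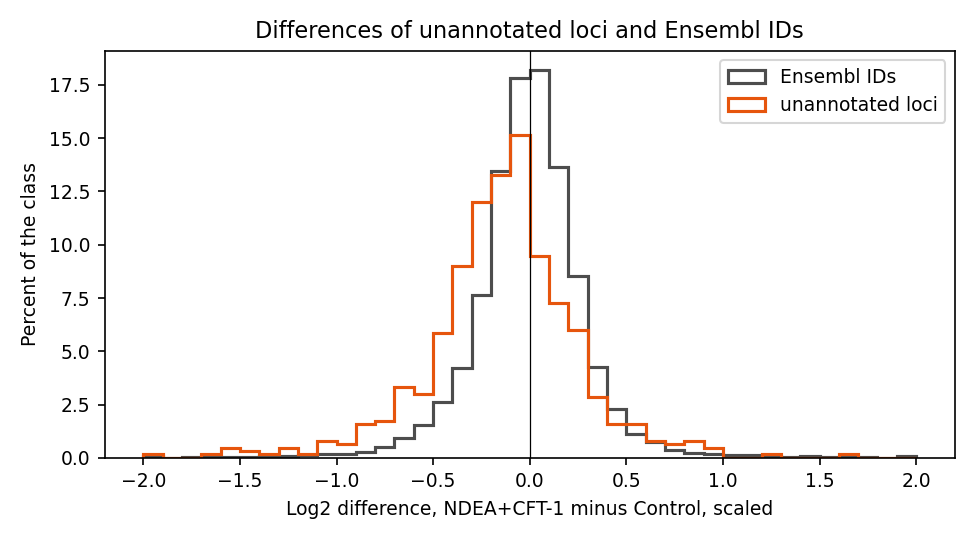
Distribution of the scaled log2 difference between NDEA+CFT-1 and Control for Ensembl IDs (grey) and unannotated loci (orange), as a percent of each class in steps of 0.1, with values beyond 2 placed in the outermost steps. The medians are 0.00 and -0.12.

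Few IDs had reads in 1 group and 0 reads in the other. Over all 34194 IDs, 3 had 0 reads in every Control library and a mean of at least 1 FPKM in NDEA+CFT-1, and 2 had the reverse. One of the 3 had 11.5 FPKM in NDEA+CFT-1 replicate 2 and 0 in the other treated livers. Another was at 2.51, 0.762 and 1.58 FPKM in NDEA+CFT-1 and was also read in every NDEA and NDEA+FYT liver, at 0.781 to 7.24 FPKM. The 2 reverse IDs were each at 0 in at least 1 Control liver. IDs read in all 3 livers of 1 group and in none of the other numbered 30 for NDEA+CFT-1 and 57 for Control, with highest means of 1.62 and 0.93 FPKM. These were thus weakly expressed IDs among the 34194, and the difference between the 2 counts was not tested.

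Against Control, the counts of differing IDs were lower for NDEA+CFT-1 than for NDEA, and its order with NDEA+FYT varied. In 1 limma fit of the 12 libraries after scaling, 548 IDs (4.87%) had an unadjusted p under 0.05 for NDEA+CFT-1 against Control, 872 (7.74%) for NDEA against Control and 352 (3.13%) for NDEA+FYT against Control. IDs without overlap numbered 1048 (9.3%), 1248 (11.1%) and 1499 (13.3%) in the same order. In each comparison of 3 with 3 libraries, a share of 0.1 would be without overlap on average if no gene differed. As deposited, the unadjusted counts were 376 (3.34%), 910 (8.08%) and 413 (3.67%), so that the order of the tea groups turned, and IDs without overlap numbered 962 (8.54%), 1329 (11.8%) and 2258 (20%). After scaling, at least 2-fold differences numbered 168 (1.49%), 241 (2.14%) and 113 (1%). Each of these comparisons uses the same 3 Control libraries, and 0 IDs were called in any of them. The difference between these counts was not tested. IDs were kept by their mean FPKM in Control and NDEA+CFT-1, so those expressed only in NDEA or NDEA+FYT were not counted. NDEA replicate 1 also stood apart, with a median of 10.4 FPKM over the tested IDs against 7.27 and 7.60 in NDEA replicates 2 and 3.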

How the data were processed

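Liver RNA of 12 rats was sequenced as 1 library each, with group and replicate number as in its label. According to the study's methods, the authors removed PCR duplicates, counted uniquely mapped reads per gene and deposited FPKM values, 1 column per library. The submitters' processing notes name Trimmomatic, HISAT2, HTSeq 0.6.1 and the build Rnor_6.0. The authors' own test was DEGSeq.

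FPKM values of a gene were whole multiples of 1 read, which gave back library totals and read counts for 100% of the tested IDs, within 0.05 reads. The recovered reads made up at least 99.9961% of each total. From the deposited FPKM, log2(FPKM + 1) of IDs with a mean of at least 1 was compared between groups (R 4.3.3, limma 3.58.1; lmFit and eBayes with a trend on the 6 libraries of both groups, Benjamini-Hochberg adjustment), as deposited and after median-of-ratios scaling. Differences are on the log2(FPKM + 1) scale, which understates those of weakly expressed genes, and "2-fold" refers to it. FPKM values and their folds are as deposited. Plots were drawn with matplotlib 3.10.9. The fit was tested on simulated data.

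Deviations from the group means correlated at 0.212, 0.257 and 0.266 between same-numbered libraries of the 2 groups and at -0.227 to 0.0499 between the others, across genes, so a fit with the number as a block was run beside the main one. The tests and intervals printed have no block unless named, and the permutation test is unpaired. The labels do not say what a number marks.

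IDs to be shown were to be the 12 in each direction with the smallest p on the scaled values and no overlap on either scale. 0 IDs could be matched to a symbol, so only 2 in each direction are shown, and the lists of pathway genes, liver genes and cell type markers, and promoter sequences, were not analysed here. The compared genes and the lists were chosen with earlier results of these data known. Alternatives were another scaling, pseudocount, filter, variance model, block, library weights and each library left out. limma-voom, and the alternatives for the comparisons with NDEA and NDEA+FYT, were added after seeing the data.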

Additional observations from a re-analysis of the deposited data

How the results depend on the processing

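The count of called IDs was 0 under quantile normalization, a pseudocount of 0.1, both other filters, a fit of all 12 libraries, eBayes without a trend and limma-voom. With limma's library weights, 517 IDs were called as deposited (308 higher, 209 lower) and 2964 after scaling (1485 higher, 1479 lower), and 2891 had an unadjusted p under 0.05 as deposited. The weights were highest for replicate 1 of each group on both scales (3.78 in Control and 5.84 in NDEA+CFT-1 as deposited, 5.09 and 12.3 scaled) and 0.173 to 1.04 elsewhere, so these calls rest largely on 1 library per group. The scaled estimation stopped with a convergence warning. Leaving out 1 library at a time gave 0 to 6 called IDs as deposited, 0 to 5 after scaling, 252 to 771 with an unadjusted p under 0.05 and 1529 to 2831 without overlap, where fewer libraries overlap less often by construction. Without a filter on low values 857 IDs had an unadjusted p under 0.05 and 1624 were without overlap, and with a mean FPKM of at least 5, 272 had an unadjusted p under 0.05, since more or fewer IDs were tested.

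With a replicate block the unadjusted count was 682 (426 higher, 256 lower), and the block changed no other call. The 4 IDs shown were called only with library weights. They kept their direction under each of the 15 or 16 alternatives that gave them a value, which their choice for no overlap largely fixes. Before adjustment, the interval of a typical gene reached 1.41-fold to either side, and intervals cover the spread between these rats only.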
